A study of Mus musculus with 12 samples.

Results

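Mesothelin, the product of the gene Msln, was followed through 12 RNA sequencing libraries made from 4T1, a line of mouse mammary carcinoma cells. Msln (ENSMUSG00000063011) was taken by its gene name and is 1 gene of the 26244 found in either of the study's sets of tables, of which 20187 are in both. It was chosen by its higher values in old than in young libraries of this same study, so its values in those comparisons are given as a description, with no test. In the files' coordinates, whose build is not given, the protein-coding gene spans 25967587 to 25973352 on the minus strand of chromosome 17. The gene length in the files is 3064 bases.

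Mesothelin is made as a precursor that furin-type proteases cut into a soluble amino-terminal fragment and a part that stays on the cell surface, held by a glycosylphosphatidylinositol (GPI) lipid anchor. In normal tissue it marks the mesothelium, the lining of the lung, heart and abdominal cavities, while many human mesotheliomas and carcinomas carry far more of it. It binds mucin 16 on other cells, can be shed by membrane proteases, and is a target of antibody and T cell therapies.

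The libraries fall into 4 groups of 3. In the lung groups, 4T1 cells carrying the fluorescent protein mNeonGreen had been given to Balb/c mice by tail vein at a dose of 5000 cells, and were sorted from the lungs of old mice or of young mice after 4 weeks, with 100000 cells in each library. In the culture groups, 4T1 cells were switched 24 h after seeding to medium without serum that held 25% interstitial fluid extract (IFE) and kept in it for 72 h. The extract came from lungs of old or of young mice that bore 4T1 metastases. The series asks whether such extract can model cancer in old age in a dish. The labels give no ages, the titles of the culture libraries carry the unexplained abbreviation shNT, and no label says that replicates came from separate animals, cultures or extracts. The p-values below therefore measure the spread between these libraries, which may be technical. All groups share 1 cell line, and the lung and culture libraries were counted in separate tables, so setting, cell preparation and table cannot be told apart.

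Library totals ran from 11679046 to 15053144 counts in the lung groups and from 12299004 to 18129164 in the culture groups. The sorted lung libraries also held RNA of other cells: the summed CPM (counts scaled to library size, by TMM within each table) of 16 macrophage markers were 92.2 to 98.7 in lungs of old mice and 825 to 849 in lungs of young mice. Sums for 10 epithelial genes of 4T1 cells were 4538 to 4631 CPM in lungs of old mice and 3413 to 3567 CPM in lungs of young mice. Alveolar and airway markers, given below, were also higher in lungs of old mice, and what lung epithelium added to these sums was not tested. In culture those 10 genes summed to 2688 to 2854 CPM with old IFE and 2738 to 2777 CPM with young IFE.

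Msln was a well-covered gene in every library. In lungs of old mice the 3 libraries held 3117, 3732 and 3230 Msln counts, and in lungs of young mice 2254, 2497 and 2623, the last recovered from the deposited normalized values. Cultures with old IFE held 5745, 4896 and 5083 counts, and cultures with young IFE 4246, 3309 and 3989. Counting error at these depths was 1.32% to 2.11% per library. In lung the spread between replicates given next was no larger than this, and in culture it was larger.

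Scaled for library size, the lung libraries of old mice had 269, 259.6 and 263 CPM of Msln, against 170.1, 169.9 and 174 CPM in lungs of young mice. All 3 libraries of old mice were above all 3 of young mice, and the lowest of the old was 1.495 times the highest of the young. The means were 264 ± 4.59 CPM in lungs of old mice and 171 ± 2.09 CPM in lungs of young mice (SD, n = 3 each), and the fitted difference was 1.54-fold (log2 fold change 0.62, SE 0.03, edgeR). In bulk RNA, more cells with Msln and more Msln RNA per cell cannot be told apart. Of 14096 genes tested in lung, 23.5% also had all old libraries above all young ones, and 95.7% had a lower log2 fold change than Msln.

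In culture, cells with old IFE had 317, 361 and 326 CPM of Msln, against 277, 269.6 and 245 CPM in cells with young IFE. The groups did not overlap here either, but they lay closer, with the lowest old library 1.14 times the highest young one. The means were 334 ± 23.6 CPM with old IFE and 264 ± 16.8 CPM with young IFE (SD, n = 3 each), a fitted 1.27-fold difference (log2 fold change 0.34, SE 0.06). Among 13118 genes tested in culture, 6.21% had all old IFE libraries above all young IFE ones, and 94.4% had a lower log2 fold change than Msln. The spread of Msln was larger in culture, with a coefficient of variation of 7.06% for old IFE and 6.36% for young IFE, than in lung, with 1.74% for old and 1.22% for young mice. In a joint fit of the 12 libraries the log2 fold change of Msln was larger in lung than in culture by 0.28 (SE 0.06), again a description, and 17.5% of 14318 genes passed the test of this difference.

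**Figure D1:**
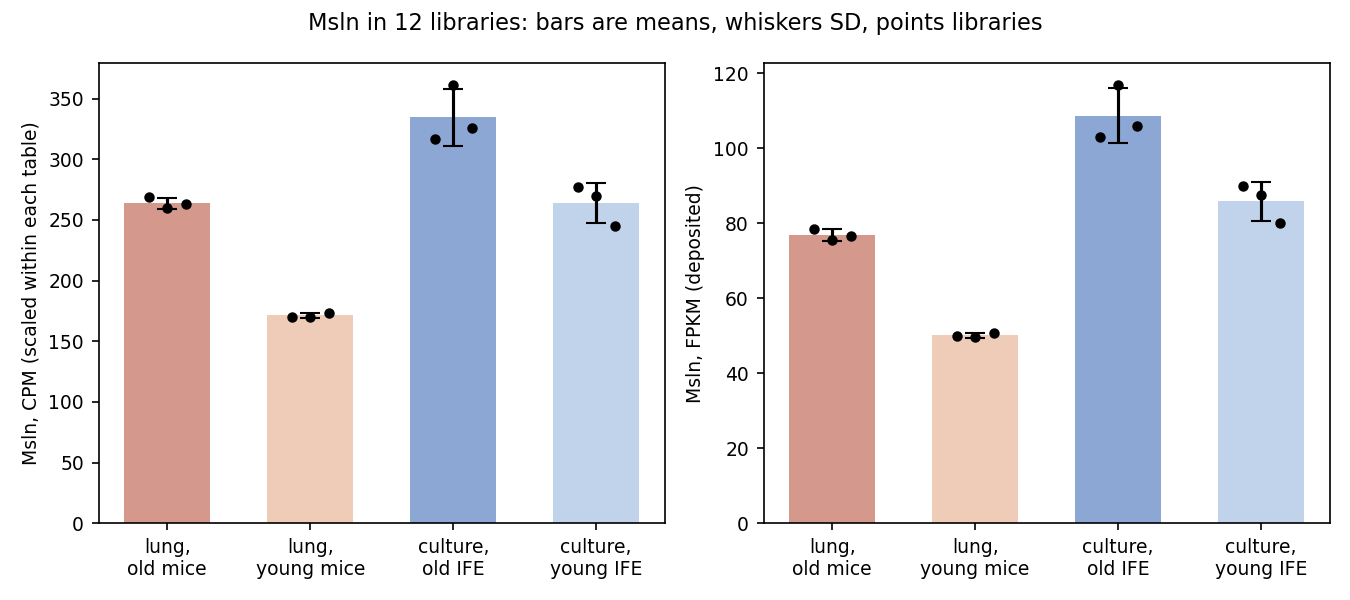
Msln in each library, as CPM scaled within its own table (left) and as the deposited FPKM (right). Points are libraries, bars are means and whiskers are SD of 3 libraries; in both settings and on both scales all 3 old libraries lie above all 3 young ones, and cultures with old IFE are the highest group.

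The 3 units in the deposited tables gave nearly the same contrast between old and young. As the authors' normalized values, Msln averaged 3544 ± 62.9 in lungs of old mice and 2300.1 ± 28.8 in lungs of young mice, and 5031 ± 347 with old IFE and 3974 ± 249 with young IFE (SD, n = 3 each). As FPKM, which also divides by gene length, the lung libraries had 78.5, 75.6 and 76.5 in old mice and 49.9, 49.6 and 50.8 in young mice. The cultures had 103, 117 and 106 FPKM with old IFE and 90.0, 87.7 and 80.0 FPKM with young IFE. The ratio of old to young means was 1.53 in lung and 1.27 in culture on the FPKM scale.

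**Figure D2:**
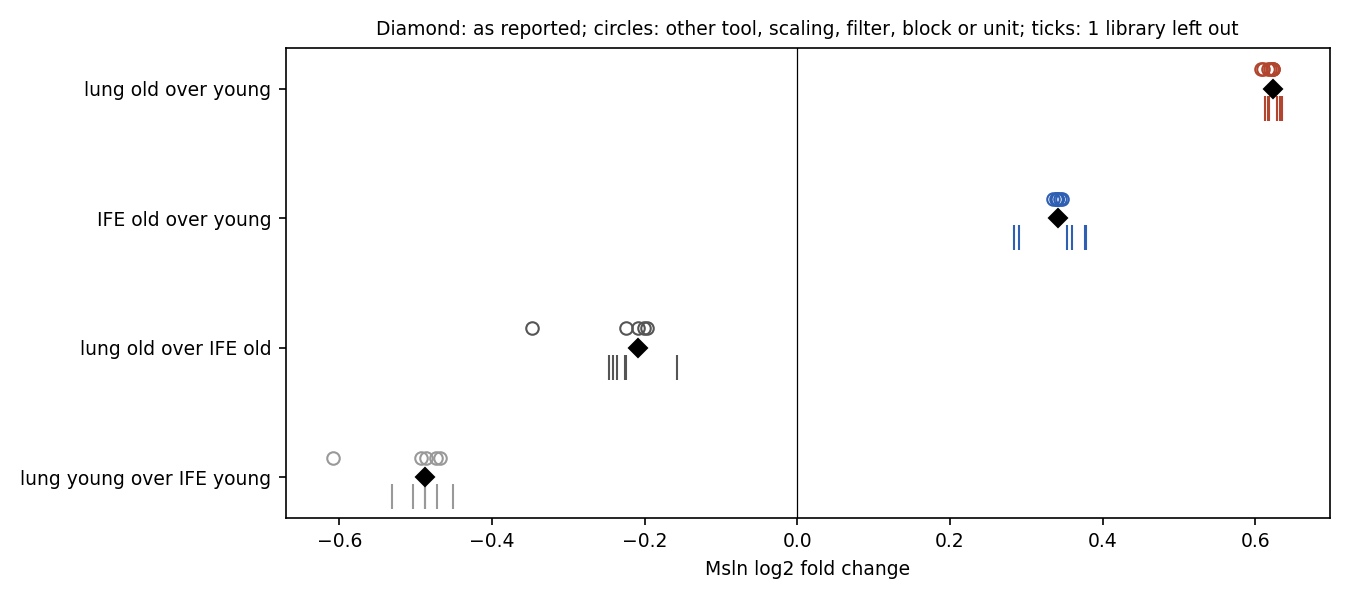
Log2 fold change of Msln in 4 contrasts as reported (diamonds), with another tool, scaling, filter, replicate block or unit (circles) and with 1 library left out (ticks). Values stay between 0.61 and 0.64 for old over young mice in lung and between 0.28 and 0.38 for old over young IFE in culture; those for lung over culture are below 0 throughout but differ more in size.

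The order of the 4 groups was the same at its ends on every scale: cultures with old IFE had the most Msln and lungs of young mice the least. The pair in between, lungs of old mice and cultures with young IFE, changed places with the scaling. Their means were 264 CPM each when every table was scaled alone, with overlapping libraries. With all 12 libraries scaled together they were 276 ± 4.78 CPM in lungs of old mice and 253 ± 14.8 CPM with young IFE, while FPKM gave 76.9 ± 1.501 in lungs of old mice and 85.9 ± 5.23 with young IFE (SD, n = 3 each). No order can be read between these 2 groups.

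The sorted lung libraries had less Msln RNA than cultures of the same age label, a contrast that played no part in choosing the gene. Fitted over 12 libraries and 14318 genes, Msln was lower in lungs of old mice than in cultures with old IFE, by a log2 fold change of -0.21 (SE 0.04, edgeR adjusted p = 7.16e-05). It was lower by -0.49 (SE 0.05, edgeR adjusted p = 4.13e-12) in lungs of young mice than in cultures with young IFE. Most genes passed this test: 74.6% of those tested for the old pair (38.6% higher and 36.1% lower in lung) and 76.2% for the young pair (39.3% higher and 36.9% lower), so passing it sets Msln apart from few genes. The size depended on the scaling. With library totals alone the values for Msln were -0.35 for the old pair and -0.61 for the young pair, and the median of all genes was then -0.12 and -0.10 in place of 0.02 and 0.01. FPKM means gave log2 ratios of -0.50 for the old pair and -0.78 for the young pair. Summed markers of macrophages, fibroblasts, endothelium and lung epithelium, given below, were all higher in lung than in culture, and their part in this contrast was not tested.

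By FPKM, Msln ranked between 484 and 507 among genes above 0 in lungs of old mice and between 814 and 837 in lungs of young mice. In cultures it ranked between 311 and 382 with old IFE and between 431 and 532 with young IFE. These are high places, since each library had 17954 to 20918 genes above 0. Of 23 other surface proteins of carcinoma cells that serve as therapy targets, Epcam, an epithelial adhesion molecule, was the only one above Msln in lung, with mean FPKM of 107 in old mice and 62.9 in young mice. In culture no other listed antigen was above it, and Epcam came next with 69.8 FPKM with old IFE and 70.3 FPKM with young IFE. In lung the next antigen below Msln was Ptk7, a receptor-like pseudokinase, with 31.7 FPKM in old mice and 27.9 FPKM in young mice.

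Beside the summed epithelial genes of 4T1 cells, Msln also took a larger share in the old groups. Taken singly, these genes were split in lung. Because Msln was chosen for its higher values in old libraries, these shares are a description, with no test. As a percentage of the summed CPM of 10 such genes, Msln was 5.76 ± 0.145% in lungs of old mice and 4.92 ± 0.162% in lungs of young mice. In culture it was 12.0 ± 0.806% with old IFE and 9.57 ± 0.595% with young IFE (SD, n = 3 each). In neither setting did the old and young ranges overlap. Taken against the 10 genes singly in lung, Msln was higher in old mice beside 5 (Krt8, Krt18, Krt19, Cdh1 and Grhl2) with no overlap. It was lower beside 3 (Epcam, Cldn4 and Krt7) with no overlap, and the ranges overlapped for 2 (Cldn7 and Esrp1). Of all genes tested in lung, 95.7% had a lower log2 fold change than Msln, so most such ratios are higher in old mice. Msln was 14.4 ± 0.343% of Krt8, a simple-epithelium keratin, in old mice and 10.6 ± 0.386% in young mice, and 114 ± 1.82% of Cdh1, the epithelial cadherin, in old mice and 86.3 ± 3.88% in young mice. It was 100.4 ± 3.89% of Epcam in old mice and 111 ± 5.53% in young mice, and 50.5 ± 0.581% of Cldn4, a tight junction claudin, in old mice and 71.1 ± 2.32% in young mice. In culture Msln was higher with old IFE beside 8 of the 10 genes with no overlap, and the ranges overlapped for 2 (Krt8 and Krt7). None of the 10 was itself called in culture, so these ratios largely restate the difference in Msln. There the ratio to Epcam was 218 ± 18.1% with old IFE and 171 ± 14.0% with young IFE.

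In lungs of old mice 9 of these 10 epithelial genes rose and 1, Krt19, fell (edgeR quasi-likelihood test, adjusted p under 0.05). Of all genes tested there, 19.6% rose, 20.4% fell and 40.0% in all passed. The median log2 fold change of the 10 epithelial genes was 0.49, against 0.00 for all genes. Epcam rose to 263 ± 7.24 CPM in lungs of old mice, against 154 ± 6.02 CPM in lungs of young mice (log2 fold change 0.77, SE 0.03). Krt7, a simple-epithelium keratin, rose by 0.75 (SE 0.03) and Cldn4 by 1.12 (SE 0.03) on the log2 scale. In culture none of the 10 passed, where 0.0839% of all genes tested did, 0.0534% higher and 0.0305% lower. Epcam there had 154 ± 11.0 CPM with old IFE and 155 ± 3.19 CPM with young IFE.

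That culture background is 11 of 13118 genes called, and it rested on single libraries. Leaving out replicate 2 of the old IFE cultures, or replicate 1 or 3 of the young IFE cultures, left 1 gene called, and leaving out replicate 2 of the young IFE cultures left 2. Leaving out replicate 3 of the old IFE cultures gave 183. At an unadjusted p under 0.05 there were 929 genes, and DESeq2 called 30. Over all gene lists read here, 123 genes were tested in culture, and 1 passed in edgeR, 12 had an unadjusted p under 0.05 and DESeq2 called 2, Ccn2 and Ajuba. Those 12 were 4 targets of YAP and TAZ, 2 epithelial genes, 2 GPI-anchored proteins, 2 antigens, 1 sheddase and 1 neutrophil marker, and every other list had none. The log2 fold change of Msln in culture was 0.28 to 0.38 over these omissions.

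Mesothelial cells are the normal source of Msln, and their other markers were nearly all at very low counts. Of 14 markers with Msln left out, 13 had a row in the lung table and 6 in the culture table, and their summed level was 58.1 to 62.8 CPM in lungs of old mice and 53.4 to 58.4 CPM in lungs of young mice. In culture the sums were 10.9 to 14.9 CPM with old IFE and 9.45 to 15.9 CPM with young IFE. Bnc1, a zinc finger factor of basal epithelia as well as mesothelium, made up most of each sum. It had 57.0 ± 2.96 CPM in lungs of old mice and 51.8 ± 2.11 CPM in lungs of young mice, which did not pass (log2 fold change 0.14, SE 0.06, edgeR adjusted p = 0.0635).

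Without Bnc1 the other markers summed to 3.37 ± 0.629 CPM in lungs of old mice and 4.13 ± 0.491 CPM in lungs of young mice, or 1.28% and 2.41% of the Msln level of the same group. With old IFE they summed to 0.841 ± 0.285 CPM and with young IFE to 0.806 ± 0.591 CPM, or 0.252% and 0.305% of Msln. Upk3b, a uroplakin, had 0.0807 CPM in lungs of old mice and 0.230 CPM in lungs of young mice. Wt1, a transcription factor of the mesothelium, had 0.212 CPM in lungs of old mice and 0.285 CPM in lungs of young mice. Neither has a row in the culture table. Of the 3 mesothelial markers with enough counts to test in lung (Bnc1, Aldh1a2 and Prg4), none passed in edgeR or DESeq2. Bnc1 alone had an unadjusted p under 0.05. Of all genes tested in lung, 40.0% passed in edgeR. Aldh1a2 had only 1.28 CPM and Prg4 1.07 CPM in lungs of old mice, so little can be read from their lack of a call.

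**Figure D3:**
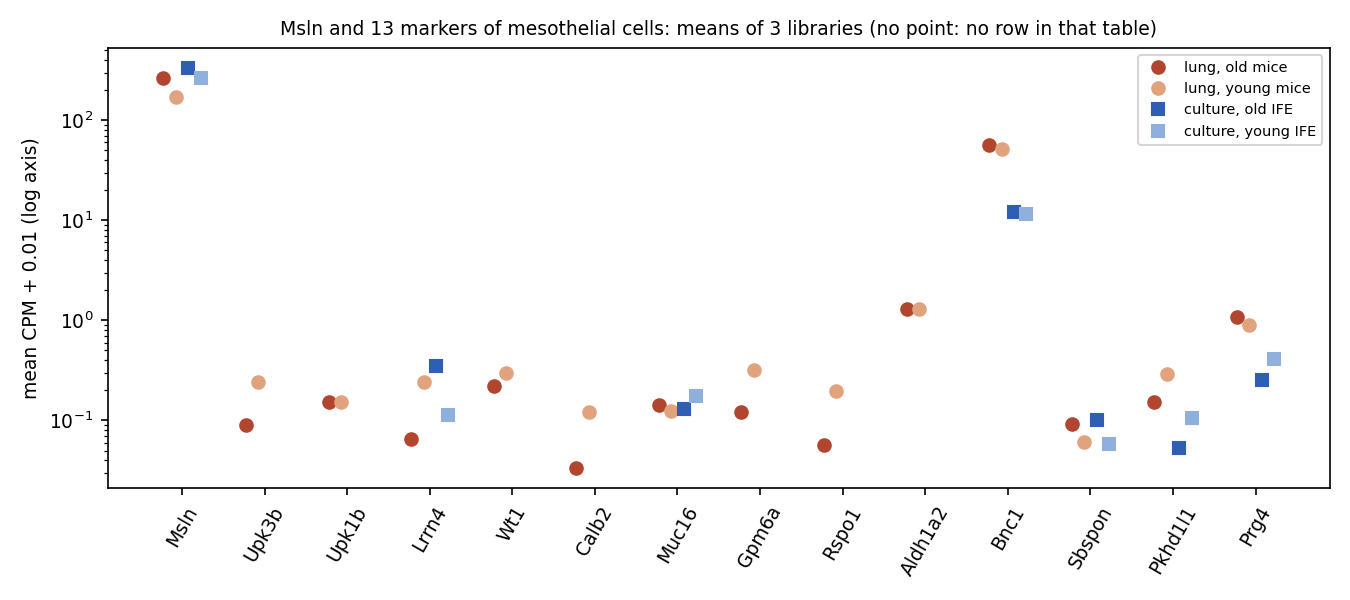
Msln and 13 markers of mesothelial cells, as the mean CPM of 3 libraries plus 0.01 on a log axis, for each group. Apart from Bnc1, the markers lie near or below 1 CPM in all groups, while Msln lies between 171 and 334 CPM; no point means that the gene has no row in that setting's table.

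Markers of other cells of the lung did move with the lung groups. The counts of markers called stand beside 19.6% of all genes tested that were higher in lungs of old mice and 20.4% that were lower. Macrophage markers fell, 13 of 13 tested, with a median log2 fold change of -3.24 and summed levels as given above. Alveolar and airway markers summed to 100.4 to 113 CPM in lungs of old mice and 40.4 to 42.2 CPM in lungs of young mice, with 8 of 13 tested higher and 1 lower. Endothelial markers summed to 35.1 to 38.0 CPM in old and 26.2 to 30.4 CPM in young mice, with 3 of 10 higher and none lower. Fibroblast and pericyte markers summed to 1053 to 1060.1 CPM in old and 937 to 952 CPM in young mice, with 6 of 11 higher and 3 lower. Lymphocyte markers summed to 2.33 to 3.26 CPM in old and 3.57 to 4.76 CPM in young mice, and the 1 tested did not pass. Klrb1c, a natural killer cell marker, has no row in the lung table, and Ncr1 and Scgb3a2 were at 0 in lungs of old mice.

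Neutrophil markers summed to 416 to 422 CPM in lungs of old mice and 217 to 236 CPM in lungs of young mice, of which Mmp9, a gelatinase that the cultured cells also expressed, was 368 ± 4.22 CPM and 166 ± 5.80 CPM. Of 7 neutrophil markers tested, 1 was higher and 2 were lower, where 19.6% of all genes tested were higher and 20.4% lower. Their part in the Msln difference in lung was not tested, and neither was that of the other cell types. In culture the macrophage markers summed to 4.90 to 5.75 CPM with old IFE and 4.18 to 5.13 CPM with young IFE, and Adgre1, C1qa, C1qb and C1qc, which define macrophages, have no row there. The alveolar and airway markers summed to 7.50 to 7.99 CPM with old IFE and 6.60 to 6.82 CPM with young IFE. Fibroblast and pericyte markers summed to 44.3 to 53.2 CPM with old IFE and 42.2 to 49.5 CPM with young IFE, and endothelial markers to 6.41 to 7.00 CPM and 3.52 to 7.17 CPM. Neutrophil markers, nearly all Mmp9, summed to 146 to 211 CPM with old IFE and 114 to 123 CPM with young IFE, and lymphocyte markers to 0.148 to 0.275 CPM and 0.307 to 0.457 CPM. The part of these cell types in the Msln difference in culture was not tested.

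A relative of Msln is also its neighbour. Mslnl, the mesothelin-like gene, lies on the opposite strand of chromosome 17 and ends 282 bases from the end of Msln without overlapping it. It was scarce, with 1.17 ± 0.118 CPM in lungs of old mice and 0.560 ± 0.461 CPM in lungs of young mice. In culture it had 5.48 ± 0.257 CPM with old IFE and 4.22 ± 0.906 CPM with young IFE. Neither difference passed (edgeR adjusted p = 0.0938 in lung and 0.769 in culture). Like Msln, Mslnl was lower in lung than in culture, by log2 fold changes of -2.08 (SE 0.32) for the old pair and -2.73 (SE 0.36) for the young pair, both of which passed. Library strandedness is not stated, so reads past the 3′ end of either gene cannot be assigned by strand. Otoa, the related otoancorin gene of the inner ear, had 0.0232 CPM in lungs of old mice and 0.0252 CPM in lungs of young mice, too low to test.

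Of 12 genes within 50 kb of Msln that are in either table, 7 had enough counts to test. In lung 1 of them passed, where 40.0% of all genes tested did, and in culture none, where 0.0839% did. The lung call was Haghl, a hydroxyacylglutathione hydrolase-like gene, which rose to 14.8 ± 1.39 CPM in lungs of old mice, against 7.91 ± 1.83 CPM in lungs of young mice (log2 fold change 0.89, SE 0.14). Its log2 fold change in culture was 0.62 (SE 0.29) and did not pass. The log2 fold changes of Chtf18, part of a clamp loader of DNA replication, and Rpusd1, a pseudouridine synthase domain gene, were -0.10 (SE 0.09) and -0.27 (SE 0.13) in lung. Ciao3, of iron-sulfur cluster assembly, had 0.03 (SE 0.11), Antkmt, a lysine methyltransferase, 0.18 (SE 0.14) and Metrn, a secreted neurotrophic factor, -0.08 (SE 0.11). None of these 5 genes passed in either setting.

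Mucin 16, the known binding partner, was almost unread. Muc16 had 0.133 ± 0.129 CPM in lungs of old mice and 0.113 ± 0.196 CPM in lungs of young mice. With old IFE it had 0.119 ± 0.104 CPM and with young IFE 0.165 ± 0.0912 CPM. These are 0 to 5 counts per library, and the gene was too low to test.

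Among proteases that cut the mesothelin precursor, the main one was abundant and level. Furin, the founding proprotein convertase, had 234 ± 6.07 CPM in lungs of old mice and 240.3 ± 4.14 CPM in lungs of young mice, and 188 ± 6.54 CPM with old IFE and 187 ± 6.66 CPM with young IFE. Its log2 fold change was -0.04 (SE 0.03) in lung and 0.00 (SE 0.05) in culture, and neither passed. Unlike Msln, Furin was higher in lung than in culture, by 0.45 (SE 0.04) for the old pair and 0.50 (SE 0.04) for the young pair. Pcsk4, a convertase best known from germ cells, rose to 8.61 ± 0.578 CPM in lungs of old mice, against 5.54 ± 1.10 CPM in lungs of young mice. Pcsk7, a widely expressed convertase, fell to 25.6 ± 1.24 CPM in lungs of old mice, against 31.3 ± 2.08 CPM in lungs of young mice, a call that was lost without replicate 3 of the young mice (edgeR adjusted p = 0.0540). Pcsk6 did not pass, with a log2 fold change of 0.51 (SE 0.29). Of the 4 convertases tested, 2 were called in lung, where 40.0% of all genes tested were. None passed in culture, where 0.0839% of all genes tested did.

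Of the 5 subunits of the transamidase that attaches the GPI anchor, 2 were called higher and 1 lower in lung by edgeR, against 40.0% of all genes tested called there. DESeq2 called 2 of the 5, Pigk and Pigt, and edgeR 2 to 4 with 1 library left out. Pigk, the catalytic subunit, rose to 79.4 ± 3.77 CPM in lungs of old mice, against 65.1 ± 1.95 CPM in lungs of young mice. Pigt rose by 0.13 (SE 0.04) on the log2 scale, which was lost without replicate 2 of the young mice (edgeR adjusted p = 0.231) and under both limma fits on FPKM (adjusted p = 0.127 and 0.130). Gpaa1 fell by 0.21 (SE 0.08), which was lost without replicate 1 of the old mice and replicates 1 and 3 of the young mice (edgeR adjusted p = 0.259, 0.0714 and 0.119), with DESeq2 (0.0571) and under both limma fits (0.0832 and 0.0845). Pigs and Pigu had log2 fold changes of -0.12 (SE 0.05) and 0.13 (SE 0.09) and did not pass. Of 22 genes tested that build or remodel the anchor, 3 rose, 2 fell and 17 did not pass, and the median log2 fold change was -0.04. These 5 calls stand beside 40.0% of all genes tested. DESeq2 called 2 of the 22, Piga and Pigq, and edgeR 2 to 4 with 1 library left out, the 2 being without replicate 1 of the young mice. Pigq, part of the enzyme for the first step, rose to 90.0 ± 1.60 CPM in lungs of old mice, against 78.4 ± 3.06 CPM in lungs of young mice. The 2 that fell were Piga, by 0.29 (SE 0.10) on the log2 scale, and Pigc, by 0.36 (SE 0.14). Both of these calls were lost with some single libraries left out and under limma on FPKM, and that of Pigc also with DESeq2. In culture none of the transamidase or anchor genes passed, where 0.0839% of all genes tested did.

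All 5 tested genes that release membrane proteins or help such release passed in lung, in both directions, where 40.0% of all genes did. Adam17, a metalloprotease reported to shed human mesothelin, fell to 145 ± 1.58 CPM in lungs of old mice, against 182 ± 3.29 CPM in lungs of young mice (log2 fold change -0.33, SE 0.04). Adam10, its close relative, fell by 0.14 (SE 0.03) on the log2 scale. Bace1, the beta-secretase, rose to 168 ± 4.43 CPM in lungs of old mice, against 128 ± 4.69 CPM in lungs of young mice (log2 fold change 0.39, SE 0.04). Of the iRhoms, which mature Adam17, Rhbdf1 rose by 0.29 (SE 0.04), while Rhbdf2 fell by 0.13 (SE 0.05), a call lost without replicate 1 of the old mice or replicates 2 or 3 of the young mice (edgeR adjusted p = 0.0546, 0.0672 and 0.0679). None of the 5 passed in culture, where 0.0839% of all genes tested did. Adam17 there had 78.1 ± 15.8 CPM with old IFE and 74.1 ± 2.05 CPM with young IFE.

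**Figure D4:**
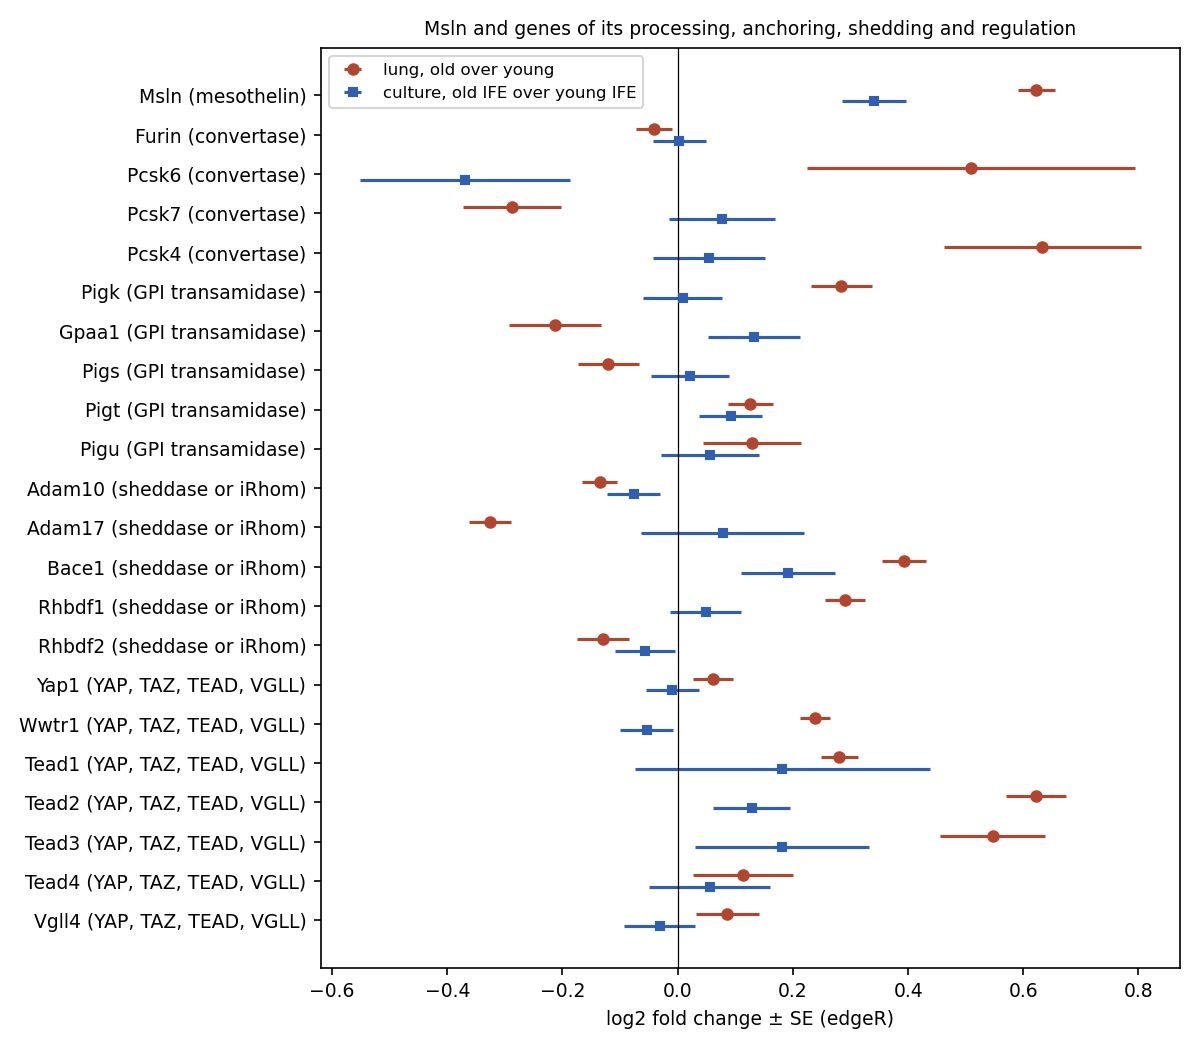
Log2 fold change with SE from edgeR for Msln and the tested genes of its processing, anchoring, shedding and proposed regulation; circles are old over young mice in lung and squares old over young IFE in culture. Msln is at 0.62 in lung and 0.34 in culture, Furin is near 0 in both, and the convertase, transamidase and sheddase genes fall on both sides of 0.

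Other GPI-anchored surface proteins were split in lung. Of 20 tested, 6 rose, 9 fell and 5 did not pass, with a median log2 fold change of -0.13. Among all genes tested in lung, 19.6% rose and 20.4% fell. Cd14, a lipopolysaccharide co-receptor abundant on monocytes and macrophages, fell to 41.2 ± 0.676 CPM in lungs of old mice, against 182 ± 7.29 CPM in lungs of young mice. Ly6a, Ly6e and Bst2, all interferon-inducible, fell by 0.84 (SE 0.04), 0.83 (SE 0.04) and 0.90 (SE 0.04) on the log2 scale. These falls stood beside the fall of macrophage markers given above, and what the other cells added to them was not tested. Ranked by FPKM, 3 of these proteins (Plaur, Gpc1 and Bst2) were above Msln in lungs of old mice and 8 in lungs of young mice. None was above it with old IFE, and 1, Cd24a at 97.1 FPKM, with young IFE. None of the 15 tested in culture passed, where 0.0839% of all genes tested did.

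Of 20 other target antigens tested in lung, 9 rose, 4 fell and 7 did not pass, and their median log2 fold change was 0.19. Of all genes tested there, 19.6% rose, 20.4% fell and 40.0% in all passed. DESeq2 called 10 of these 20 antigens, and edgeR 10 to 12 with 1 library left out. Besides Epcam, Slc34a2, a phosphate transporter that alveolar type II cells also make, rose to 8.11 ± 1.59 CPM in lungs of old mice, against 2.94 ± 0.733 CPM in lungs of young mice. Gpnmb, a glycoprotein also made by macrophages, fell to 3.72 ± 0.951 CPM in old, against 17.5 ± 0.816 CPM in young mice. None of the 17 tested in culture passed, where 0.0839% of all genes tested did.

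Human MSLN has an upstream enhancer that answers to TEAD factors and their coactivator YAP, so these genes were read beside Msln. Of 7 factors and cofactors tested in lung, 4 rose and none fell, where 19.6% of all genes tested rose and 20.4% fell. Tead2 rose to 95.3 ± 6.34 CPM in lungs of old mice, against 61.7 ± 2.31 CPM in lungs of young mice, and Wwtr1, which encodes the YAP relative TAZ, to 411 ± 10.3 CPM, against 348 ± 3.39 CPM. Tead1 and Tead3 rose by 0.28 (SE 0.03) and 0.55 (SE 0.09) on the log2 scale. Yap1 itself had 190.1 ± 5.50 CPM in old and 182 ± 9.10 CPM in young mice and did not pass, and neither did Tead4 or Vgll4. None of the 8 tested in culture passed, where 0.0839% of all genes tested did.

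Of 19 transcripts induced by YAP and TAZ that were tested in lung, 14 rose, 2 fell and 3 did not pass. Their median log2 fold change was 0.26, against 0.00 for all genes. The shares over all genes tested in lung were 19.6% higher and 20.4% lower. Whether YAP or TEAD factors act on Msln here was not tested. Ccn2, connective tissue growth factor, rose to 80.6 ± 7.40 CPM in lungs of old mice, against 26.0 ± 1.31 CPM in lungs of young mice (log2 fold change 1.64, SE 0.07). Ccn1, Amotl1 and Amotl2 rose by 0.56 (SE 0.02), 0.36 (SE 0.02) and 0.53 (SE 0.04) on the log2 scale. In culture 1 of 20 passed, Ccn2, where 0.0839% of all genes tested did. An earlier account of these data had named Ccn2 beside Msln, so its p-value is no independent evidence. Ccn2 had 63.0 ± 7.28 CPM with old IFE and 41.5 ± 2.83 CPM with young IFE (log2 fold change 0.60, SE 0.08, edgeR adjusted p = 0.00712). That call was lost without replicate 2 of the old IFE cultures (edgeR adjusted p = 0.0507) and without replicates 1, 2 or 3 of the young IFE cultures (edgeR adjusted p = 0.114, 0.0604 and 0.216). Ccn1 had 101 ± 28.8 CPM with old IFE and 68.1 ± 3.44 CPM with young IFE, which did not pass.

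Canonical Wnt signalling raises Msln in a mouse mammary epithelial line, and its target genes were mixed. Of 12 tested in lung, 6 rose, 4 fell and 2 did not pass, with a median log2 fold change of 0.09. Among all genes tested there, 19.6% rose and 20.4% fell. Ccn4, a Wnt-induced secreted protein, rose by 0.78 (SE 0.09) and Myc, the growth regulator, by 0.32 (SE 0.03). Notum, an extracellular inhibitor of Wnt, fell by 0.82 (SE 0.08), and Ccn5, a relative of Ccn4, by 0.56 (SE 0.07). None of the 10 tested in culture passed, where 0.0839% of all genes tested did. The ligand Wnt7a, which is not on that list, rose to 10.0 ± 2.10 CPM in lungs of old mice, against 3.13 ± 0.632 CPM in lungs of young mice (log2 fold change 1.67, SE 0.19). Wnt7a was read because an earlier account of these data names it beside Msln, so its p-value is no independent evidence. In culture Wnt7a had 44.4 ± 1.14 CPM with old IFE and 33.0 ± 1.84 CPM with young IFE (log2 fold change 0.43, SE 0.08, edgeR adjusted p = 0.0319). The culture call of Wnt7a was lost without replicate 1 or 2 of the old IFE cultures (edgeR adjusted p = 0.163 and 0.158) and without replicate 1, 2 or 3 of the young IFE cultures (edgeR adjusted p = 0.393, 0.215 and 0.344).

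Which genes followed Msln most closely from library to library was asked of 14317 genes. Likeness was the lower of 2 Pearson correlations of log2 CPM with Msln, over the 6 lung and over the 6 culture libraries, and 16 genes exceeded 0.9. The libraries share their group, so this measure mostly picks genes that separate old from young in both settings, and it is a description over few points. Among the leading genes, in order, were Alg5 (0.95), Nox4 (0.95), Col7a1 (0.95), Cavin2 (0.94), Bend5 (0.94), Actg1 (0.93) and Ptpa (0.93). Ccn2 was at place 13, Wnt7a at 57 and Mslnl at 380.

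These 7 genes were chosen for their likeness to Msln, which fixes much of how they differ between old and young, so their values are a description with no test. Alg5, a glucosyltransferase of the N-glycan pathway, had 34.1 ± 1.54 CPM in lungs of old mice and 23.5 ± 1.78 CPM in lungs of young mice. In culture Alg5 had 53.9 ± 2.00 CPM with old IFE and 48.3 ± 1.30 CPM with young IFE. Nox4, a superoxide-generating oxidase, had a log2 fold change of 1.97 (SE 0.45) in lung, on low counts of 6 to 29 per library. Actg1, cytoplasmic gamma-actin, had 672 ± 10.7 CPM with old IFE and 517 ± 18.0 CPM with young IFE (log2 fold change 0.38, SE 0.04). In lung its log2 fold change was 0.19 (SE 0.02). Actin genes have near-identical copies, so the split of reads to Actg1 is uncertain.

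**Figure D5:**
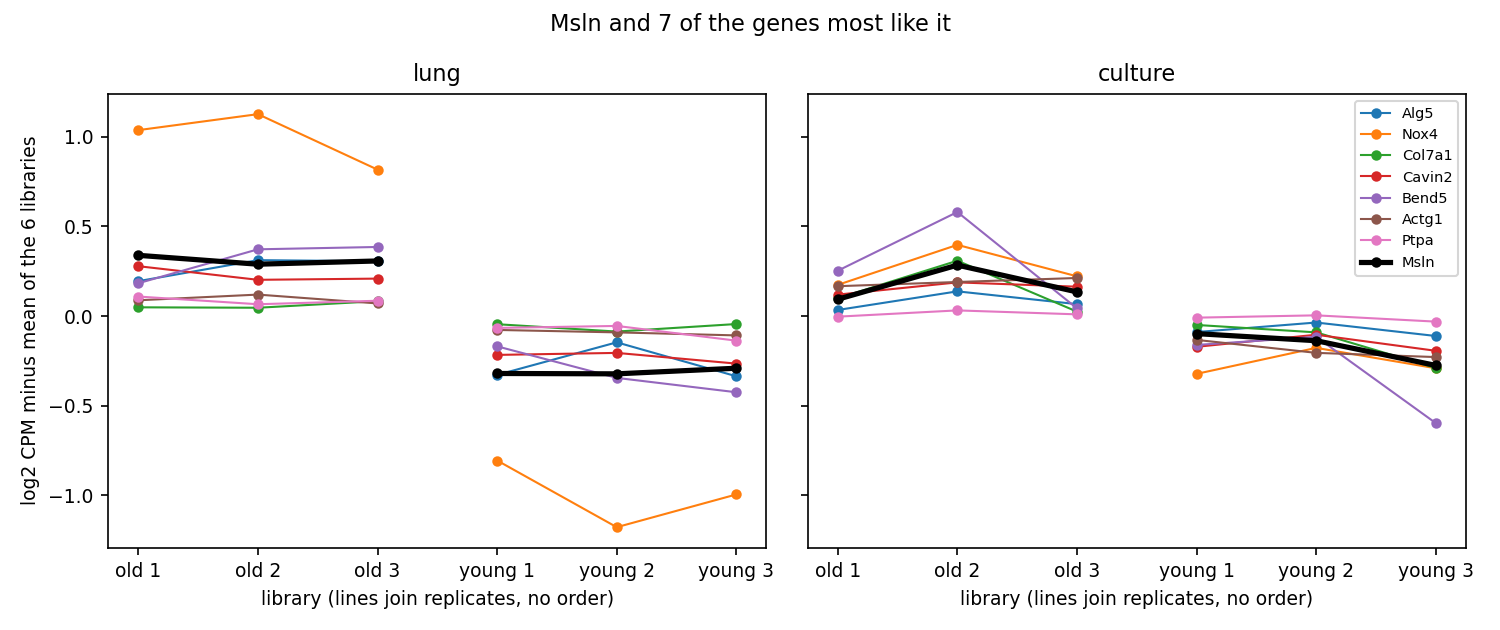
Log2 CPM of Msln (black) and of 7 of the genes most like it, each minus its own mean over the 6 libraries of the setting, for lung (left) and culture (right). Lines only join replicates; every gene is higher in old than in young lung libraries, and in culture Bend5 spreads most between replicates.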

How the data were processed

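Poly-A selected RNA of 12 libraries was sequenced, per the labels' protocols, with both directional and non-directional libraries described. For each setting the authors deposited raw counts, normalized signal and FPKM, in a table each. Tools named, per the submitters' processing notes, are HISAT2 2.0.5, DESeq2 without a version, and featureCounts 1.5.0-p3. They also name a human genome build, although the rows are mouse genes. In the deposited normalized signal, each library's counts are scaled by 1 size factor. Counts for 5 of 6 lung libraries were in the lung table used here. The counts of lung young replicate 3 were recovered from the normalized signal, of which 100% of values were whole within 0.001, and 100% equalled the deposited count in the other 11 libraries.

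Each setting was fitted on its 6 libraries, and lung over culture on the 20187 genes in both tables, with edgeR 4.0.16 (R 4.3.3), TMM scaling, its default filter on low counts, robust dispersions and quasi-likelihood F-tests. P-values were adjusted by Benjamini-Hochberg over all genes tested, with a call at 0.05. The SE is the log2 fold change over the square root of F. FPKM served for levels between genes and, on log2(FPKM + 0.1) and log2(FPKM + 1), for a limma 3.58.1 alternative. DESeq2 1.42.0, other scalings, no filter, a replicate block and leaving out each library were the other alternatives. The fits were tested on simulated counts, with the same fixed spread for every gene in every fit. The data differ: at the level of Msln the fitted coefficient of variation was 2.80% in lung, 5.13% in culture and 4.54% over 12 libraries. The shares below therefore hold for the simulated spread and do not measure the power of each fit on the data. Of simulated 1.25-fold changes, 20% were recovered in the lung fit, 28% in culture and 32% in lung over culture. Of 1.5-fold changes, 72%, 82% and 80% were recovered. False genes made up 8.72% of those called in the lung fit, above the 0.05 set for a call. The share was 4.49% in culture and 3.18% in lung over culture. Most simulated 1.25-fold changes were missed, so a gene that did not pass may still differ. Msln and all gene lists were chosen with earlier results of these data known. Named genes are Msln, the tested members of the short lists of its processing, shedding and regulators, up to 4 called genes of lowest p in each other list, genes within 50 kb, the 8 most like Msln, and Ccn2, Wnt7a and Actg1. Results for some of these genes are left out here, and genes shown without a call for their place or role, such as Upk3b, Wt1 and Ptk7, were picked after their values were seen.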

Additional observations from a re-analysis of the deposited data

Results flagged for a closer look

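Msln belongs to none of the results below, since its difference between the settings was given without a test. For 24 genes that the report reads beside it, the log2 fold change of old over young differed between lung and culture in edgeR's interaction test over 12 libraries (adjusted p from 4.61e-16 for Cldn4 to 0.0486 for Mmp9). Of all genes tested, 17.5% passed this test. Many of the 24 were named for a call in lung, where calls were far more common than in culture. Others came from an earlier account of these data or were chosen for likeness to Msln. Choosing by lung calls favours a difference between the settings, so the 24 cannot be set against that share. Each value is the log2 fold change in lung minus that in culture.

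Among genes of processing, anchoring and shedding, the difference was 0.58 for Pcsk4, -0.37 for Pcsk7, 0.27 for Pigk, -0.35 for Gpaa1 and 0.24 for Rhbdf1. Among GPI-anchored proteins it was -2.26 for Cd14, -0.93 for Ly6e and -1.10 for Bst2. For target antigens it was 0.78 for Epcam and -2.10 for Gpnmb. Regulators and their targets gave 0.29 for Wwtr1, 0.49 for Tead2, 1.03 for Ccn2, 0.29 for Amotl1, 0.29 for Myc, 0.67 for Ccn4 and 1.24 for Wnt7a. Mmp9 gave 0.61, Cldn4 1.02, Krt7 0.61 and Krt18 0.50, the last of which has near-identical copies. Of the genes chosen as most like Msln, whose values are a description, Alg5 gave 0.38, Nox4 1.44 and Actg1 -0.20, so that among these 3 Actg1 alone had the larger change in culture.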

How the results depend on the processing

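The log2 fold change of Msln kept its direction in all 4 contrasts under every alternative run. Old over young in lung it ran from 0.61 to 0.64, and in culture from 0.28 to 0.38. Lung over culture it ran from -0.35 to -0.16 for the old pair and from -0.61 to -0.45 for the young pair over the count fits. As ratios of means it was -0.50 and -0.78 in FPKM, and -0.51 and -0.79 in the authors' normalized values; limma on FPKM was not run for lung over culture. Genes called in lung numbered 4609 to 5655, against 5639 as reported. Genes called in culture, 11 as reported, were 30 with DESeq2, 70 with no filter on low counts, and 2 with limma on log2(FPKM + 0.1) and 2 on log2(FPKM + 1). They were 1 to 183 with 1 library left out. The cause was not tested.

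Replicate numbers did not pair the samples: correlations of same-numbered deviations from the group means were -0.0044 to 0.0036 in lung and -0.027 to 0.031 in culture. With a replicate block, Msln had 0.62 in lung, 0.34 in culture, -0.21 for the old pair and -0.49 for the young pair. The block left 7 genes called in culture and 5655 in lung, and not every library correlated best with its own number. Of the genes named in the report, the culture call of Wnt7a was lost under the block (edgeR adjusted p = 0.0858), and under limma so were those of Wnt7a and Ccn2.

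Of 127 genes read beside Msln that were called in lung, 112 to 127 were also called under each alternative, and none turned direction. The coefficient of variation of Msln in culture was 6.36% to 7.06% within a group of 3 libraries.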
